A study of Arabidopsis thaliana with 18 samples.

Results

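The comparison described here set *sdg26-1* against wild-type (WT, Col-0) plants at 16 °C, over every splicing event of the deposited RNA-seq table, 399 of 399 events in 334 genes. *sdg26-1* is a T-DNA insertion line of *SDG26*, and no further line of this gene was sequenced. Both genotypes grew for 5 weeks at 16 °C under a short-day cycle (8 h of light, then 16 h of darkness) and stayed there until collection. Of the 18 samples of the series, 6 enter this comparison, 3 of *sdg26-1* and 3 of WT, each from the SAM-enriched tissue of about 10 plants. The other samples were *sdg8-2* at 16 °C and all 3 genotypes 1 day after a move to 25 °C.

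The authors merged the 3 samples of a condition before they estimated percent spliced in (PSI). This value gives, as a fraction from 0 to 1, how much of an event's transcript pool has the spliced-in form. There is thus 1 value for an event in a condition, rounded to 2 decimals, with no replicate error and no read depth. Differences are described by their size and count and were not tested. An event entered the table for a difference between 16 °C and 25 °C in at least 1 genotype. By the paper's methods, the single samples served to filter such events by read support and by the spread of PSI within a condition. The events are thus no sample of all splicing in the apex, and the 16 °C values compared here also took part in that listing. The usual convention of MISO, the program used, counts the form with the intron or the exon as spliced in, and PSI is read in this way here for intron retention (IR) and exon skipping (ES). The sources used here do not say which form is counted for mutually exclusive exons (MXE) or for alternative splice sites, 3′ (A3) or 5′ (A5).

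SDG26 is a SET-domain histone methyltransferase, and with SDG8 it sets methylation on lysine 36 of histone H3 in Arabidopsis. H3K36me3 lies over the bodies of transcribed genes, where introns are removed while RNA polymerase is still at work. In mammals, proteins that read the mark can bring splicing regulators to the nascent transcript. Plants without SDG26 flower late. *SDG26* (AT1G76710, reverse strand of chromosome 1, 28789698 to 28792719 in TAIR10.1) has no event in the table, and the table holds no expression levels. Neither the loss of SDG26 nor the labelled tissue could therefore be checked from it.

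At 16 °C most listed events had nearly the same PSI in *sdg26-1* and in WT. The median difference, *sdg26-1* minus WT, was 0.00 and the median absolute difference 0.03. The quartiles of the differences were -0.02 and 0.03, and 186 events (46.6%) differed by at most 0.02. PSI was higher in *sdg26-1* in 185 events, lower in 170 and equal in 44. A difference of at least 0.1 was found in 57 events of 53 genes, which is 14.3% of all listed events. Of these, 27 were higher (6.77% of all events) and 30 lower in *sdg26-1* (7.52%). The share of lower events was 52.6%, with an exact Clopper-Pearson 95% interval of 39% to 66% that describes events and not plants. This interval treats the events as independent, which events of the same gene may not be. The threshold of 0.1 is not a natural break, as 9 events lay at exactly 0.10 and 6 at 0.09.

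**Figure D1:**
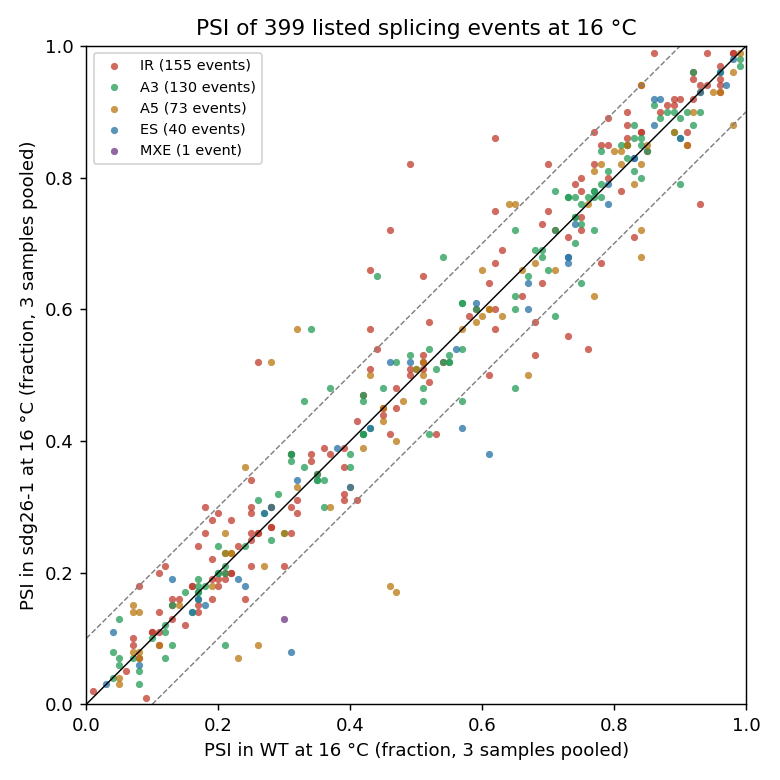
PSI of each listed event at 16 °C in *sdg26-1* (vertical axis, fraction) against WT (horizontal axis, fraction), 1 point per event and coloured by event type, each value pooled from 3 samples. The solid line marks equal PSI and the dashed lines a difference of 0.1, and 342 of the 399 events lie between the dashed lines.

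The share of events past 0.1 varied with the PSI of the event. The median absolute difference hardly did, with 0.02 for WT PSI under 0.2 and 0.03 for both higher ranges. Of the 245 events with a WT PSI of 0.2 to 0.8, 46 (18.8%) differed by at least 0.1, with 22 higher and 24 lower in *sdg26-1*. Of the 84 events with a WT PSI over 0.8, 9 did so (10.7%), and of the 70 events under 0.2 only 2 (2.86%), both higher. Events near 0 or 1 have less room to differ in one direction.

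The event furthest above WT was intron retention in *ATG18F* (AT5G54730), which encodes a homologue of a yeast autophagy protein. Its PSI was 0.82 in *sdg26-1* and 0.49 in WT, a difference of 0.33, so that the form with the intron was the major one in the mutant and made up just under 0.5 of the pool in WT. The gene lies on chromosome 5 from 22233789 to 22237370 (reverse strand). The IR event of AT5G46730, which encodes a glycine-rich protein, had a PSI of 0.52 in *sdg26-1* and 0.26 in WT. The IR event of AT3G05165, which encodes a transporter of the major facilitator superfamily, had 0.72 in *sdg26-1* and 0.46 in WT. In each of these genes the intron was kept more often in the mutant at 16 °C.

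Further genes had a higher PSI in *sdg26-1* by 0.21 to 0.23. An A3 event of the protein kinase gene AT4G32000 had 0.65 in *sdg26-1* and 0.44 in WT. An IR event of AT5G41750, which encodes an intracellular immune receptor of the TIR-NBS-LRR class, had 0.66 in *sdg26-1* and 0.43 in WT. An A3 event of AT4G00440, a gene with a domain of unknown function, had 0.57 in *sdg26-1* and 0.34 in WT. In total 9 events were higher by at least 0.2, and 5 were lower by at least 0.2.

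The largest lower PSI in *sdg26-1* was in a pair of A5 events of AT5G34790.1, a locus on chromosome 5 (12966080 to 12968155, forward strand) that the TAIR10.1 annotation calls a pseudogene. The first had 0.17 in *sdg26-1* and 0.47 in WT, and the second 0.18 in *sdg26-1* and 0.46 in WT. These events lie in 1 assembled locus with values that close, and they may rest on some of the same reads. An ES event of the long noncoding RNA gene AT3G51075 had 0.38 in *sdg26-1* and 0.61 in WT. AT3G03350, the gene of a Rossmann-fold protein, had an ES event with 0.08 in *sdg26-1* and 0.31 in WT, so that the exon was mostly skipped in both and more so in the mutant. Both A3 events of that gene leaned the other way, with 0.38 in *sdg26-1* and 0.31 in WT. An IR event of AT1G61970, which encodes a mitochondrial transcription termination factor family protein, had 0.54 in *sdg26-1* and 0.76 in WT, with the intron removed more often in the mutant. The other IR events of this gene were closer, with 0.85 and 0.87 in *sdg26-1* and 0.91 in WT for both.

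Below these, several events were lower by 0.16 or 0.17. AT2G42950, the gene of a magnesium transporter like CorA, had an IR event with 0.76 in *sdg26-1* and 0.93 in WT. The IR event of AT1G50970, which encodes a VPS53-family protein of membrane trafficking, had 0.56 in *sdg26-1* and 0.73 in WT. In both genes the intron was kept less often in the mutant. An A3 event of AT5G03406, annotated with the class II aminoacyl-tRNA synthetases, had 0.48 in *sdg26-1* and 0.65 in WT. AT3G24360, which encodes a protein of the Clp protease and crotonase family, held the only listed MXE event, with 0.13 in *sdg26-1* and 0.30 in WT.

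**Figure D2:**
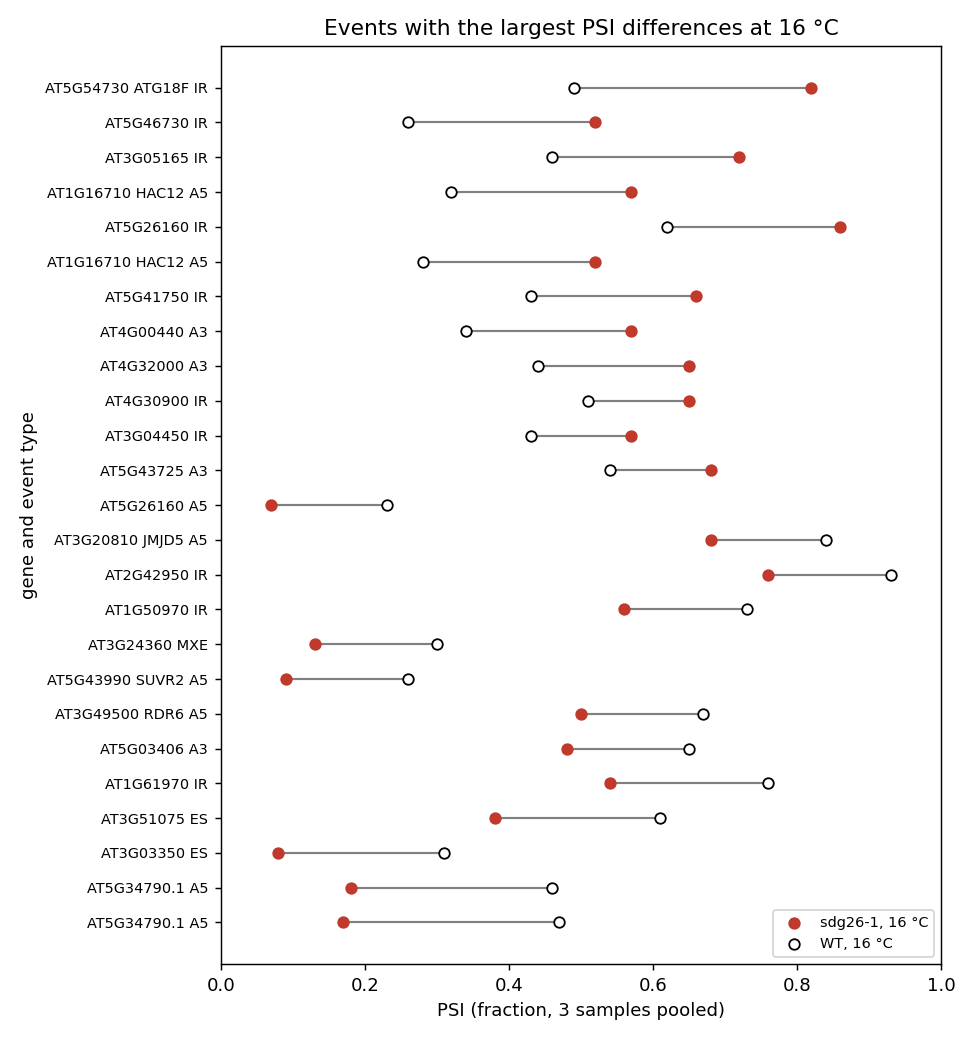
PSI at 16 °C (horizontal axis, fraction, 3 samples pooled) of the 12 events with the largest higher and the 13 with the largest lower values in *sdg26-1*, ties included, by gene and event type. Filled points are *sdg26-1* and open points WT, and the differences run from 0.33 in *ATG18F* to -0.30 in AT5G34790.1.

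IR events leaned toward higher PSI in *sdg26-1*, and ES and A5 events toward lower PSI, in counts that were not tested. Set against the same WT samples, *sdg8-2* had a higher PSI in 85 and a lower PSI in 59 IR events. Its counts were 31 higher and 36 lower for A5 events, and 19 higher and 20 lower for ES events. Of the 155 IR events, 88 had a higher and 55 a lower PSI in *sdg26-1*, and 16 were higher and 10 lower by at least 0.1. Together these 26 were 16.8% of the IR events. Of the 40 ES events, 12 were higher and 21 lower, and the 3 with a difference of at least 0.1 (7.5%) were all lower. The third of them, in AT2G23985, had 0.42 in *sdg26-1* and 0.57 in WT. The highest ES value relative to WT was in AT3G11880, with 0.11 in *sdg26-1* and 0.04 in WT.

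Of the 73 A5 events 15 (20.5%) passed 0.1, with 6 higher and 9 lower. By any size, 27 A5 events were higher and 38 lower. A3 events differed less often, with 12 of 130 (9.23%), 5 higher and 7 lower, and they were balanced by any size, with 58 higher and 55 lower. Leaving aside the lone MXE event (-0.17), the median differences were 0.01 for IR, -0.01 for ES, 0.00 for A3 and -0.01 for A5. Rounding of PSI alone can shift a single difference by up to 0.01, so these medians are no larger than the step of the table.

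**Figure D3:**
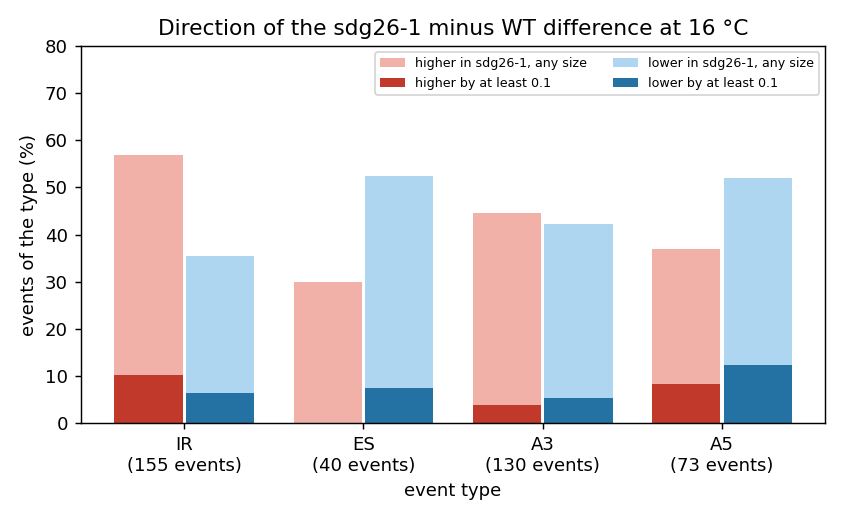
Percentage of the events of each type (vertical axis) that had a higher (red, left bar) or a lower (blue, right bar) PSI in *sdg26-1* than in WT at 16 °C. Pale bars count differences of any size and dark bars those of at least 0.1, and higher values prevail in IR (88 against 55 events) and lower ones in ES (12 against 21).

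In 4 genes a pair of events passed 0.1. *HAC12* (AT1G16710, chromosome 1 from 5713794 to 5722614), which encodes a histone acetyltransferase of the CBP family, had A5 events with 0.57 and 0.52 in *sdg26-1* and 0.32 and 0.28 in WT. The *HAC12* events lie in 1 assembled locus with close values, and they too may rest on some of the same reads. The events of AT5G34790.1 also went the same way. In the other 2 genes the pair went in opposite directions. In AT5G26160, which encodes a protein of unknown function, the IR event had 0.86 in *sdg26-1* and 0.62 in WT, and the A5 event 0.07 in *sdg26-1* and 0.23 in WT. In AT3G04450, which encodes a homeodomain-like protein, the IR event had 0.57 in *sdg26-1* and 0.43 in WT, and the A5 event 0.62 in *sdg26-1* and 0.77 in WT. In both genes a larger share of the event's transcript pool kept the intron in the mutant. For A5 the form that is counted is not known.

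Genes of chromatin regulation differed in both directions. Of 26 events in 23 genes of this list, 9 events in 8 genes differed by at least 0.1 (34.6%, beside 14.3% of all events), 3 higher and 6 lower in *sdg26-1*, with a median difference of -0.015. This share was not tested, and the list was drawn up from the genes of the table. The higher events were the pair of *HAC12* and 1 of the sirtuin gene *SRT2* (AT5G09230), whose A5 event had 0.76 in *sdg26-1* and 0.65 in WT.

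Of the lower events in this list, the A5 event of *SUVR2* (AT5G43990, chromosome 5 from 17697686 to 17702036), which encodes a SET-domain protein of gene silencing, had 0.09 in *sdg26-1* and 0.26 in WT. The A5 event of *JMJD5* (AT3G20810, chromosome 3 from 7275645 to 7278420), also called *JMJ30*, had 0.68 in *sdg26-1* and 0.84 in WT. JMJ30 is a JmjC-domain demethylase of H3K36me3 with a link to the circadian clock, and its gene also belongs to the clock list. An A3 event of AT1G77800, which encodes a PHD finger protein, had 0.59 in *sdg26-1* and 0.71 in WT. An IR event of AT1G49520, which encodes a SWIB-domain protein, had 0.67 in *sdg26-1* and 0.78 in WT.

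The list also held *LUH* (AT2G32700), a relative of the corepressor gene *LEUNIG*, whose A3 event had 0.41 in *sdg26-1* and 0.52 in WT. One IR event of AT2G25590, which encodes a Tudor-like protein, had 0.31 in *sdg26-1* and 0.41 in WT. Its second IR event, with 0.31 in *sdg26-1* and 0.39 in WT, stayed below the threshold. *HAC1* (AT1G79000), a paralog of *HAC12*, had 0.90 in *sdg26-1* and 0.92 in WT at its A5 event. The SET-domain gene *SDG25* (AT5G42400) had 0.13 and 0.93 in *sdg26-1* and 0.05 and 0.96 in WT at its A3 and IR events.

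Among splicing regulators a pair of IR events passed the threshold. Of 21 events in 17 genes of splicing factors, 2 were higher by at least 0.1 and none lower (9.52%, beside 14.3% of all events), with a median difference of 0.01. In a list of this size that share lies near the background. The first was an IR event of *SR34b* (AT4G02430), which encodes a serine/arginine-rich splicing factor, with 0.75 in *sdg26-1* and 0.62 in WT. A second IR event of this gene had 0.85 in *sdg26-1* and 0.79 in WT. The other was the IR event of *U2AF65B* (AT1G60900), the large subunit of the factor that recognises 3′ splice sites, with 0.54 in *sdg26-1* and 0.44 in WT.

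The remaining splicing factor events differed by 0.06 at most. *U2AF65A* (AT4G36690), the paralog of *U2AF65B*, had 0.30 in *sdg26-1* and 0.28 in WT at its IR event. *SCL33* (AT1G55310) had 0.68 in *sdg26-1* and 0.73 in WT at its ES event, and *RS40* (AT4G25500) 0.76 in *sdg26-1* and 0.79 in WT. *SR34* (AT1G02840), *RS31* (AT3G61860), *RS41* (AT5G52040) and the polypyrimidine tract-binding protein gene *PTB1* (AT3G01150) had the same PSI in both genotypes. Of 25 events in 18 genes of other RNA-binding proteins and RNA helicases none reached 0.1, beside 14.3% of all events. Their differences lay between -0.05 and 0.04, and the lack of larger ones was not tested.

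No event of the flowering time list reached 0.1, and 9 events are too few to set this apart from the 14.3% of all events. These events in 7 genes had a median difference of -0.03, and all differences lay between -0.06 and 0.08. By any size 7 were lower and 1 higher in *sdg26-1*, beside 170 lower and 185 higher of all 399 events. This lean of small differences was not tested. *MAF3* (AT5G65060), a MADS-box repressor of flowering, had 0.18 in *sdg26-1* and 0.24 in WT at its ES event. Its relative *FLM* (AT1G77080) had 0.87 in *sdg26-1* and 0.89 in WT at its A5 event, and 0.11 in both at its IR event.

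In the clock list 1 of 10 events passed 0.1, the A5 event of *JMJD5*, which is near the share of all events. The 3 events of *PRR7* (AT5G02810), which encodes a component of the circadian clock, differed by 0.01 at most. The IR event of *LNK2* (AT3G54500) had 0.26 in *sdg26-1* and 0.18 in WT.

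Each of the other lists held a single event past 0.1, too few to set any of them apart from the 14.3% of all events. In RNA silencing and mRNA decay (1 of 6 events) it was the A5 event of *RDR6* (AT3G49500), an RNA-dependent RNA polymerase, with 0.50 in *sdg26-1* and 0.67 in WT. Among plastid genes (1 of 14) it was an IR event of *CPSAR1* (AT5G18570), which encodes a chloroplast GTPase, with 0.99 in *sdg26-1* and 0.86 in WT. In the ubiquitin system (1 of 11) it was an A3 event of the ubiquitin ligase gene *KEG* (AT5G13530), with 0.64 in *sdg26-1* and 0.75 in WT. In vesicle trafficking (1 of 8) and among immune receptors (1 of 4) it was the event of AT1G50970 and of AT5G41750 given above. Over all lists 16 of 129 events passed 0.1 (12.4%).

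**Figure D4:**
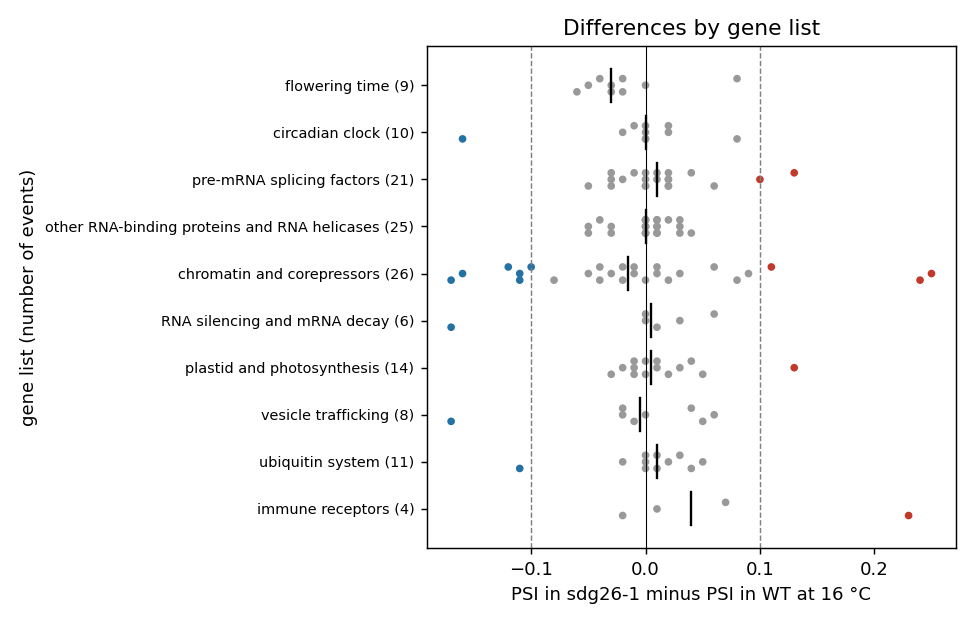
Difference in PSI at 16 °C, *sdg26-1* minus WT (horizontal axis), of every event in the gene lists, with the number of events in brackets. Points are events, coloured where they reach 0.1, black bars are list medians, and 9 of the 26 chromatin events but none of the 9 flowering time events lie on or past the dashed lines at 0.1.

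Outside the lists, 23 events differed by 0.10 to 0.14, 14 of them higher and 9 lower in *sdg26-1*, and 4 are given here as examples. An IR event of AT4G30900, which encodes a DNAse I-like protein, had 0.65 in *sdg26-1* and 0.51 in WT. The noncoding RNA gene AT5G43725 had 0.68 in *sdg26-1* and 0.54 in WT at its A3 event, and *TET10* (AT1G63260), which encodes a tetraspanin of the membrane, had 0.76 in *sdg26-1* and 0.64 in WT at its A5 event. The A3 event of *BZIP25* (AT3G54620), which encodes a leucine zipper transcription factor, had 0.09 in *sdg26-1* and 0.21 in WT. In the last of these the counted form was rare in both genotypes. Some other genes that the study named stayed below 0.1. The IR event of AT3G08840, annotated with the D-alanine ligase family, was just under it, with 0.20 in *sdg26-1* and 0.11 in WT. The IR event of *ARF2* (AT5G62000), an auxin response factor gene, had 0.14 in *sdg26-1* and 0.11 in WT, and the A5 event of *RCA* (AT2G39730), the Rubisco activase gene, had 0.50 in *sdg26-1* and 0.51 in WT.

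The gene next to *SDG26* was among those that differed. AT1G76720 (chromosome 1 from 28794144 to 28800402, reverse strand), which encodes a protein of the eIF-2 translation initiation factor family, is the only gene with a listed event within 10 genes on either side of *SDG26*, and a gap of 1424 bp separates the genes. Its IR event had 0.53 in *sdg26-1* and 0.68 in WT, a difference of -0.15. At 25 °C the same event had 0.85 in *sdg26-1* and 0.77 in WT.

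By annotation, the median length of the genes with an event past 0.1 was 3213 bp and the median of their largest exon number 8, set beside 3327 bp and 9 in the 279 other genes, and 50 of the 53 were protein-coding, beside 263 of the 279. Of the 32 events in loci annotated only as unknown, as an unknown antisense gene or with no text, 4 passed 0.1 (12.5%, beside 14.3% of all events). Loci annotated as an unknown protein or a protein of unknown function are not among these 32. By chromosome the share ran from 9.26% on chromosome 2 to 21.2% on chromosome 5. Chromosome 1 had 5 events past 0.1 that were higher in *sdg26-1* and 8 that were lower. Chromosome 3 had 4 and 8, and chromosome 5 had 9 and 8. On chromosome 4, 9 of the 10 were higher, and on chromosome 2 all 5 were lower, beside 27 higher and 30 lower in all. These counts are small and were not tested.

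The *sdg26-1* and WT values at 25 °C come from other plants. Of the 57 events past 0.1 at 16 °C, 18 had the same sign at 25 °C, 34 the opposite sign and 5 no difference. The absolute difference was smaller at 25 °C in 53 of the 57, with a median of 0.13 at 16 °C and of 0.05 at 25 °C. These events were chosen for a large difference at 16 °C, so smaller values in a second measurement can follow from the choice alone. Over all listed events, 38 differed by at least 0.1 at 25 °C (9.52%), with 20 higher (5.01%) and 18 lower (4.51%), and 11 events passed at both temperatures. The reverse look-up gave the same picture, as 31 of the 38 events chosen at 25 °C had a smaller absolute difference at 16 °C, with a median of 0.125 at 25 °C and of 0.045 at 16 °C. Of those 38, 13 had the same sign at 16 °C, 24 the opposite sign and 1 no difference.

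Of the 11 events past 0.1 at both temperatures, a single event kept its direction. It was intron retention in *NUDX13* (AT3G26690), the gene of a nudix hydrolase, with 0.18 in *sdg26-1* and 0.08 in WT at 16 °C, and 0.50 in *sdg26-1* and 0.39 in WT at 25 °C. The other 10 turned round. The first A5 event of AT5G34790.1 had 0.37 in *sdg26-1* and 0.20 in WT at 25 °C, a difference of 0.17 in place of -0.30. The IR event of AT5G41750 had 0.42 in *sdg26-1* and 0.54 in WT at 25 °C, and that of AT5G46730 0.38 in *sdg26-1* and 0.48 in WT. Intron retention in AT1G54770, annotated as an Fcf2 protein of pre-rRNA processing, had 0.94 in *sdg26-1* and 0.84 in WT at 16 °C, and 0.53 in *sdg26-1* and 0.71 in WT at 25 °C.

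Both events of *HAC12* were nearly level at 25 °C, with 0.31 and 0.27 in *sdg26-1* and 0.30 and 0.25 in WT. In *ATG18F* a part of the difference remained, with 0.69 in *sdg26-1* and 0.60 in WT. Among the 27 events that were higher in *sdg26-1* at 16 °C, the median PSI at 25 °C was 0.50 in *sdg26-1* and 0.54 in WT. Among the 30 lower ones it was 0.47 in *sdg26-1* and 0.45 in WT. Over all 399 events the differences at 16 °C and at 25 °C had a Pearson r of -0.207 and a Spearman rho of -0.125, across events that share libraries within each temperature. Events were listed because PSI differed between these temperatures in a genotype, and the part of this listing in the change of sign was not tested.

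**Figure D5:**
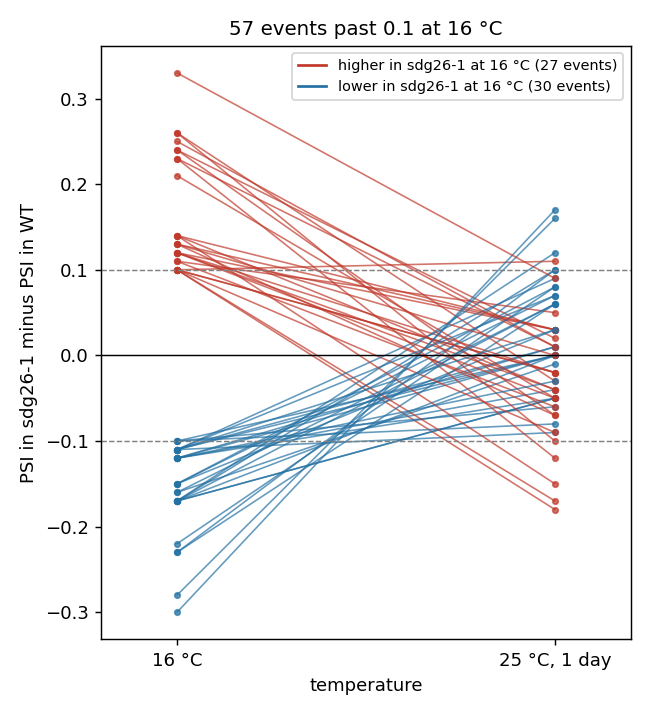
Difference in PSI, *sdg26-1* minus WT (vertical axis), at 16 °C and after 1 day at 25 °C (horizontal axis) for the 57 events that differed by at least 0.1 at 16 °C. Each line is an event, red where *sdg26-1* was higher at 16 °C and blue where it was lower, and 53 of the lines lie closer to 0 at 25 °C, where the events were not chosen.

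IR events leaned the other way at 25 °C. At 25 °C, 50 IR events had a higher and 89 a lower PSI in *sdg26-1* than in WT, against 88 higher and 55 lower at 16 °C. For ES events the counts at 25 °C were 17 higher and 18 lower. A5 events also leaned the other way, with 34 higher and 27 lower at 25 °C against 27 higher and 38 lower at 16 °C.

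The *sdg8-2* values at 16 °C are set against the same WT samples, so they give no independent view of the WT value. By the same threshold 73 events differed from WT in *sdg8-2* (18.3%), 45 higher (11.3%) and 28 lower (7.02%). The lower ones include the A5 and IR events of *FLM*, listed with 0.00 in *sdg8-2* and with 0.89 and 0.11 in WT. Without read depth it is not known whether these 0.00 values were measured. In the 27 events that were higher in *sdg26-1*, the median difference from WT was 0.13 in *sdg26-1* and 0.12 in *sdg8-2*. In the 30 lower ones it was -0.15 in *sdg26-1* and -0.095 in *sdg8-2*. These events were chosen for their difference from the same WT values, so *sdg8-2* medians on the same side can follow from the choice alone. For the events with the largest differences in *sdg26-1*, *sdg8-2* had 0.56 at the IR event of *ATG18F*, 0.43 at that of AT5G46730 and 0.44 at that of AT3G05165, where WT had 0.49, 0.26 and 0.46. The *HAC12* events had 0.44 and 0.40 in *sdg8-2*, between the values of *sdg26-1* and WT. The MXE event of AT3G24360 had 0.35 in *sdg8-2*, above WT, and the IR event of AT1G50970 had 0.72, close to the 0.73 of WT.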

How the data were processed

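RNA of SAM-enriched tissue from 3 *sdg26-1* and 3 WT samples at 16 °C was compared, with the other pooled conditions shown beside it. TopHat2 alignment to TAIR10 and Cufflinks transcript models are named in the submitters' processing notes and MISO in the paper (versions: not given in the sources used here). As deposited by the authors, the table holds PSI as a fraction with 2 decimals, 1 value per event and condition from merged replicates, for events called in at least 1 genotype between 16 °C and 25 °C. The 6 deposited columns with the authors' own differences of PSI and their calls were not used.

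PSI in *sdg26-1* minus PSI in WT was computed in whole hundredths, and events of at least 0.1 were counted by direction, type, gene list and annotation. No test was run, since events are not replicates and read depth is unknown. Of the 334 gene identifiers 332 matched the RefSeq annotation of TAIR10.1, and the coding coordinates of 306 of 315 genes were the same there. Event positions within genes are not used here. Named were the 12 largest differences in each direction, the 3 largest per direction and type, list members past 0.1, genes with at least 2 such events, genes within 10 genes of *SDG26*, and genes the paper names. From these, and from others chosen after their values were seen, the text gives a selection. The events and lists were chosen with earlier results of these data known. The alternatives changed the threshold, the scale, the unit counted and the events kept. Values were computed in Python 3.11.15 with pandas 2.3.3, scipy 1.17.1 and numpy 2.4.6, and drawn with matplotlib 3.10.9.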

Additional observations from a re-analysis of the deposited data

How the results depend on the processing

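The counts followed the threshold. At least 0.05 was reached by 132 events, 74 higher and 58 lower in *sdg26-1*, at least 0.15 by 25 (9 higher, 16 lower) and at least 0.2 by 14 (9 higher, 5 lower), where the share of lower events was 35.7%. Without IR events 31 were left, 11 of them higher. On the logit scale, with a difference of at least 0.5, 82 events passed, 44 higher and 38 lower, so that the lower ones were 46.3% and no longer the larger part. Thresholds of 0.09 and 0.11, which bound the rounding, gave 63 and 48 events. Counting genes, 1 event per gene or repeated listings once, and keeping WT PSI of 0.1 to 0.9, left every count within 1.5 times and the median at 0.00. The larger direction did change. Lower events were 46.8% with 1 event per gene (25 higher, 22 lower) and 49.2% at the threshold of 0.09. They were 56.2% at 0.11, 52.7% counting genes, 52.6% with repeated listings once and 51.9% for WT PSI of 0.1 to 0.9. The share of events with the same sign at 25 °C was 31.6%, and 28% to 37.1% under other thresholds, which were added after seeing the data. Leaving out replicates could not be done with pooled values. No paired analysis was possible because the table holds 1 pooled value per condition. Pooled values carry no depth, so single differences near 0.1 have an unknown error.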
